A study of Mus musculus with 6 samples.

Results

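Mertk, a receptor with which phagocytes take up dying cells, was the only member of its receptor and ligand group whose RNA passed the test in the brain of 7-day-old mouse pups given ethanol. The group held 8 genes: the 3 TAM receptors Tyro3, Axl and Mertk, their ligands Gas6 and Pros1, and Mfge8, Megf10 and Itgb5, which act in the same uptake of dying cells. They were chosen by name, with the rise of Mertk already known, and were read from the probesets that the platform annotation pairs with a single gene. Among several probesets of a gene the brightest over the 6 arrays was to be used, but each of the 8 members had only 1. The table held 19938 genes in all, and 8 of 8 members passed the filter on dim genes that left 14953 genes for testing.

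The pups were males of C57BL/6J, an inbred mouse strain, and none carried a transgene or a targeted allele according to the labels. The ethanol group received 20% ethanol in 0.15 M saline under the skin on postnatal day 7, as 2 doses of 2.5 g/kg 2 h apart, and the saline group received 0.15 M saline alone. All litters were parted from the dam during the injections. Whole brains were collected 4 h after the first injection. Each array held RNA pooled from 3 males of different litters, so that 18 pups gave 2 ethanol arrays (2 and 4) and 4 saline arrays (1, 3, 5 and 6). Each ethanol pup had a saline littermate, but the labels do not tie litters to arrays. Values are log2 intensities on an Affymetrix whole-transcript array, and an intensity has no meaning across different probesets, so each level or ratio was compared only across arrays.

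A dying cell exposes phosphatidylserine, a lipid normally kept on the inner face of its membrane. The secreted proteins Gas6 and protein S (encoded by Pros1) bind this lipid through a domain that vitamin K dependent carboxylation makes functional, and bridge the cell to the TAM receptor kinases on a phagocyte. Gas6 binds all 3 receptors and protein S binds Tyro3 and Mertk. Mfge8 is a further bridge, to integrins such as the one that contains the Itgb5 subunit. Megf10 is an engulfment receptor of astrocytes, and with Mertk it serves in the removal of synapses by these cells. In the brain Mertk is known from microglia and astrocytes, and Tyro3 mainly from neurons.

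The stretches of DNA before the start of the 3 receptor genes are shown because Mertk differed between the groups and its relatives Tyro3 and Axl did not pass the test. They are the 250 bases before the RefSeq start on the GRCm38.p6 build, on the gene's own strand, at chr2:128698665-128698914 (plus strand) for Mertk, chr2:119799264-119799513 (plus strand) for Tyro3 and chr7:25788734-25788983 (minus strand) for Axl. Capitals mark GC boxes (GGGCGG on either strand) and, in Axl, a match to the FoxO motif GTAAACA.
Mertk: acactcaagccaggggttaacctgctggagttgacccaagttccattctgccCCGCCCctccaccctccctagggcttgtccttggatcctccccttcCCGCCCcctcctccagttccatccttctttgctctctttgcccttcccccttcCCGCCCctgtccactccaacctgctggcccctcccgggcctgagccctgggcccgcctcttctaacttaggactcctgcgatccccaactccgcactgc
Tyro3: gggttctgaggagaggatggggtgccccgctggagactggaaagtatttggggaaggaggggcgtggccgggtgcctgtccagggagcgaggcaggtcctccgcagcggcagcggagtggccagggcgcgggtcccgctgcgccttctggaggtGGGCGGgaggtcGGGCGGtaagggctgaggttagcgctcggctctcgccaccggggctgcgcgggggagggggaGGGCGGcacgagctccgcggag
Axl: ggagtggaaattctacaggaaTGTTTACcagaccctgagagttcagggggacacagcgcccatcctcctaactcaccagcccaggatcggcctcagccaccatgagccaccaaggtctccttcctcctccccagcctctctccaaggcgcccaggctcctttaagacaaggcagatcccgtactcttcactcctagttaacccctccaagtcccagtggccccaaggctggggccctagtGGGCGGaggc
The Mertk stretch held 3 GC boxes, that of Tyro3 also 3 and that of Axl 1. Promoters of 7 of the 8 members were matched, and 7 of 7 held a GC box, as did 32.7% of 32841 promoter stretches of this length in the RefSeq table. Searched on both strands, none of the 7 held an AP-1 site (TGANTCA), a nuclear receptor half-site (AGGTCA), a glucocorticoid receptor half-site (AGAACA), an E-box (CACGTG) or a TATA box (TATAAA). These were present in 6.75%, 14.0%, 16.1%, 6.02% and 12.4% of all stretches. The FoxO motif lay in Axl alone among the 7, and in 3.17% of all stretches. The content of G and C was 54.8% to 73.2% in the 7 stretches, beside a median of 52.4% over all stretches. All of these counts rest on 7 stretches, and the part of this content in them was not tested. A match is a run of letters and not a measured site.

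Over all genes tested, 12 passed (limma with Benjamini-Hochberg adjustment, threshold 0.05), 9 higher and 3 lower with ethanol, or 7 higher and 1 lower after the arrays were centred on their medians. The median log2 change was -0.019. The array medians were 8.34 and 8.35 with ethanol and 8.29 to 8.38 with saline, where the lowest was saline array 3. This array also stood apart, with a limma array weight of 0.370 where the other saline arrays had 1.28 to 1.70. Both ethanol arrays had 0.959, since 2 arrays lie equally far from their mean, so these weights cannot tell them apart. Saline array 3 was the lowest of the 4 saline arrays for 51.3% of tested genes and for 6 of the 8 members. Results that rest on it are therefore given with and without it. The 8 members lay above the level of 6.19 below which 95% of 1190 olfactory and vomeronasal receptor genes fell, a guide to background. The filter on dim genes was passed by 12 of 12 neuron markers and 12 of 12 astrocyte markers. It was also passed by 14953 of 19938 genes and by 8 of 8 choroid plexus and ependyma markers. Passing it therefore does not test the labelled tissue. The number of arrays limits precision.

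Mertk rose 1.50-fold (95% interval 1.31 to 1.72). Its log2 intensity was 7.77, 7.60, 7.85 and 7.95 on saline arrays 1, 3, 5 and 6, and 8.30 and 8.46 on ethanol arrays 2 and 4. Both ethanol arrays lay above all saline arrays, and the lower ethanol value exceeded the highest saline value by 0.35. The mean went from 7.79 ± 0.15 (SD, n = 4) to 8.38 ± 0.11 (SD, n = 2). The log2 change was 0.59 ± 0.09 (SE), or 3.92 times the SD of the saline arrays, with a limma adjusted p of 0.0382. Ordered by unadjusted p, Mertk had rank 10 of all genes tested, and 10 of the 14953 genes, Mertk included, had a change at least as large in size. Of the 8 members 1 was called higher and 0 lower, where 0.0602% of all genes were called higher, 0.0201% lower and 0.0803% in either direction. That call was known when the members were chosen, so the count describes the group and supports nothing.

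The size of the change in Mertk held without any single array, while the call did not. The log2 change was between 0.51 and 0.67 with 1 array left out. The limma adjusted p was 0.0401 without saline array 3 and 0.0157 without saline array 6. It was 0.0511 without saline array 1, 0.0940 without ethanol array 2, 0.386 without ethanol array 4 and 0.128 without saline array 5, so that 4 of the 6 arrays were each needed for the call.

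**Figure D1:**
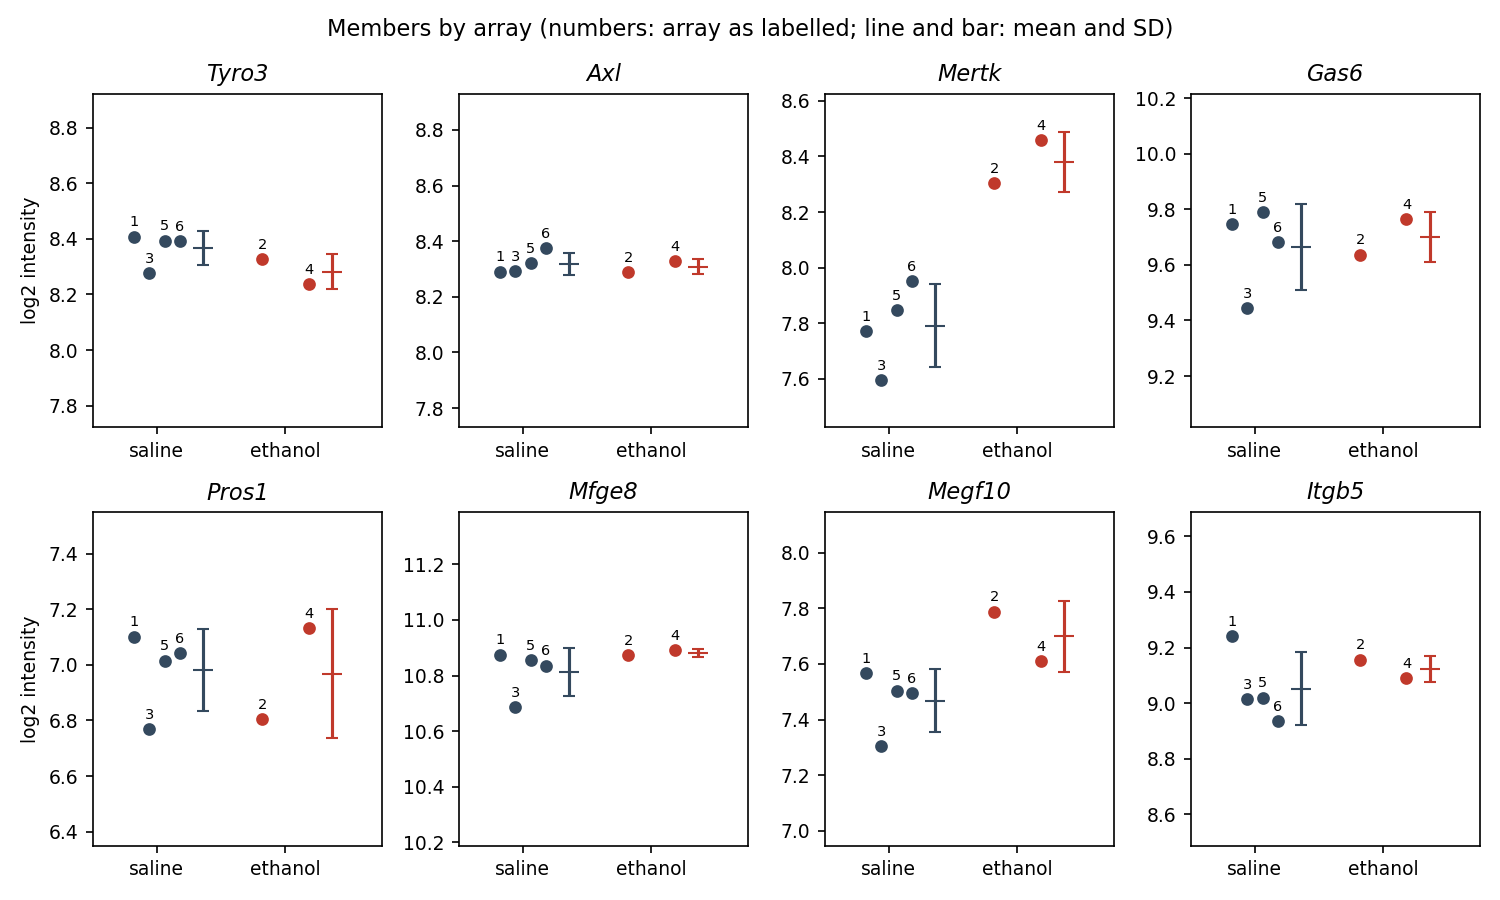
Log2 intensity (vertical axis, the same span of 1.2 in each panel) of the 8 members on each saline array (dark) and ethanol array (red), with the array's number and the group's mean and SD. Only for Mertk and Megf10 do both ethanol arrays lie above all 4 saline arrays, by 0.35 and 0.043.

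Tyro3 and Axl, the other TAM receptors, did not pass. Tyro3 was at 8.41, 8.28, 8.39 and 8.39 on saline arrays 1, 3, 5 and 6, and at 8.33 and 8.24 on ethanol arrays 2 and 4. On saline arrays 1, 5 and 6 it was higher than on both ethanol arrays, and saline array 3 fell between these. The log2 change was -0.085 ± 0.064 (SE), or 0.943-fold with an interval of 0.856 to 1.04 (limma adjusted p = 0.620), and without saline array 3 it was -0.12 (limma adjusted p = 0.377). Axl, best known from vessels and inflamed tissue, was at 8.29, 8.29, 8.32 and 8.37 on saline arrays 1, 3, 5 and 6 and at 8.29 and 8.33 with ethanol. Its 6 values spanned only 0.085 and the groups overlapped. The log2 change was -0.011 ± 0.059 (limma adjusted p = 0.962), with an interval of 0.908 to 1.08-fold.

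Whether Mertk differed from its relatives was asked of the log2 ratio of their signals on each array. The ratio of Mertk to Tyro3 was higher with ethanol by 0.67, and ethanol arrays 2 and 4 lay at -0.023 and 0.22 against -0.68 to -0.44 on the saline arrays. The ratio of Mertk to Axl was higher by 0.60, at 0.015 and 0.13 against -0.70 to -0.42. A ratio to Megf10, added after its values were seen, was higher by 0.36, at 0.52 and 0.85 against 0.21 to 0.46. In each of these 3 comparisons the groups did not overlap, and the exact permutation test (two-sided) gave p = 0.0667, also after adjustment over the 3 pairs. That is the smallest p that 15 choices of 2 arrays among 6 allow, so this test cannot pass the threshold. The groups of Mertk, whose rise was known beforehand, lay 0.35 apart, while Tyro3 and Axl spanned only 0.17 and 0.085 over the 6 arrays. The ratios to Tyro3 and Axl therefore had to separate, and their separation adds no support beyond the values of Mertk. The ratio to Megf10 was picked with its values in view and holds the same values of Mertk, so its separation adds no support either. The difference from Megf10 rested more on 1 array than those from Tyro3 and Axl did, and was 0.19 without ethanol array 4.

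Megf10, the astrocyte engulfment receptor, came next to Mertk in size and did not pass. Its values were 7.57, 7.30, 7.50 and 7.50 on saline arrays 1, 3, 5 and 6 and 7.79 and 7.61 on ethanol arrays 2 and 4. Both ethanol arrays lay above the saline arrays, the lower of them by only 0.043. The log2 change was 0.23 ± 0.08 (SE), or 1.17-fold with an interval of 1.04 to 1.33, with an unadjusted p of 0.0139 and an adjusted p of 0.272 in limma. It was 0.18 without saline array 3 and 0.14 without ethanol array 2. With Mertk it made 2 of 8 members whose groups did not overlap, both with ethanol above, where 7.68% of all genes lay that way and 22.6% in either direction. The same 2 members were those with an unadjusted p under 0.05, which 12.3% of all genes had and 3.85% on the higher side. The rise of Mertk was known when the members were chosen, so both counts describe the group and support nothing.

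The ligands of the TAM receptors showed no detectable difference. Gas6 lay between 9.44 and 9.79 with saline and at 9.64 and 9.76 with ethanol, which made a difference of 0.035 ± 0.090 on the log2 scale (SE; limma adjusted p = 0.916). Pros1 lay between 6.77 and 7.10 with saline and at 6.80 and 7.13 with ethanol, so that the 2 ethanol arrays were nearly as far apart as the extremes of the saline arrays. Its log2 change was -0.013 ± 0.102 (limma adjusted p = 0.974), with the widest interval of the members, 0.849 to 1.16-fold. Neither ligand had a settled direction, since the sign of both changes turned when single arrays were left out.

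Mfge8 and Itgb5, the bridge to integrins and an integrin subunit it binds, overlapped between the groups as well. Mfge8 was at 10.69 to 10.88 with saline and at 10.87 and 10.89 with ethanol. Its log2 change of 0.069 ± 0.067 (SE; limma adjusted p = 0.722) came down to 0.026 without saline array 3, which held its lowest value. Itgb5 was at 8.93 to 9.24 with saline and at 9.16 and 9.09 with ethanol, and its highest value was that of saline array 1. The log2 change of Itgb5 was 0.070 ± 0.080 (limma adjusted p = 0.773). For the 6 members other than Mertk and Megf10, the 95% intervals together ran from 0.849 to 1.19-fold, so changes of 1.50-fold lay outside each of them. Of the 8 members, 5 had a change above 0 and 3 below (41.4% of all genes lay above 0), with a median of 0.052 beside -0.019 for all tested genes.

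**Figure D2:**
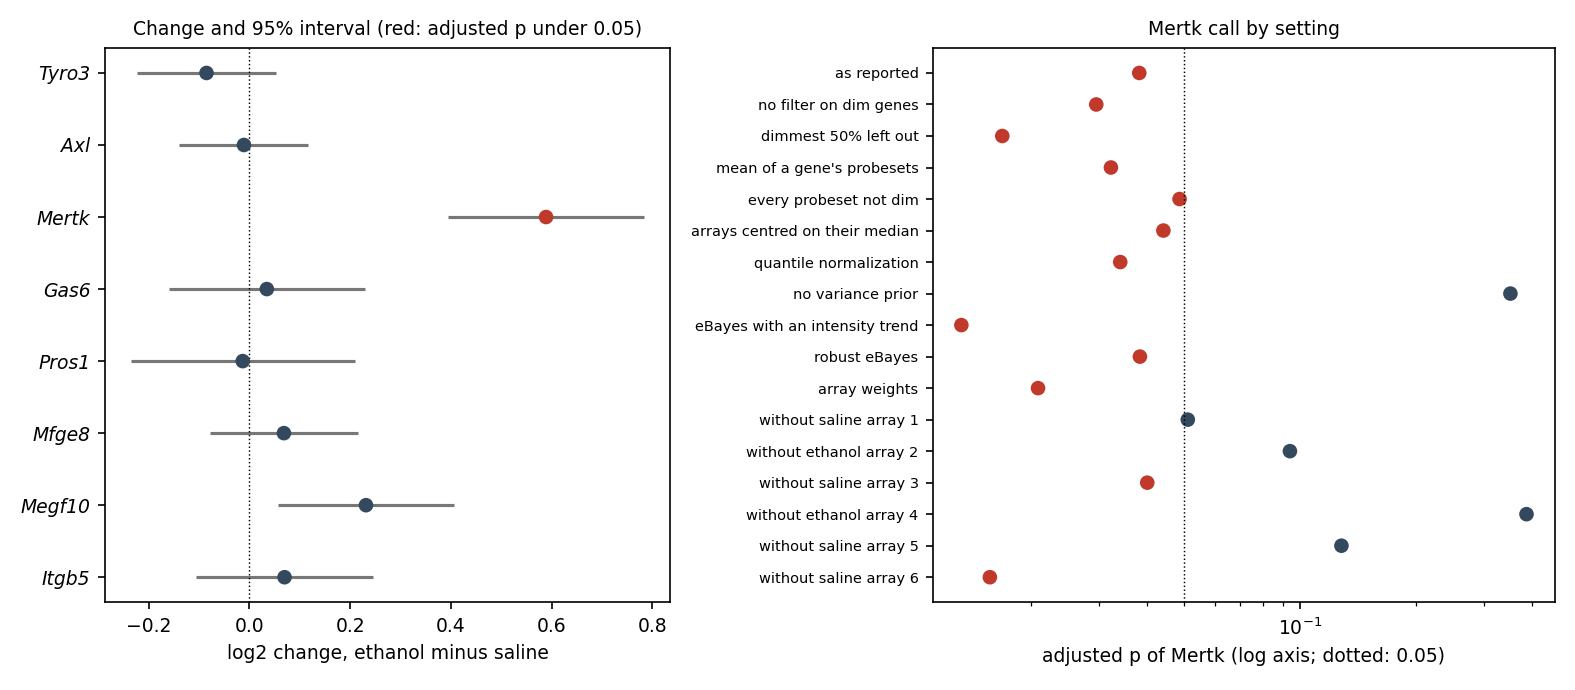
Left, log2 change (ethanol minus saline) of each member with its 95% interval from limma, where the interval of Mertk, 0.39 to 0.78, overlaps only that of Megf10. Right, adjusted p of Mertk (log axis) as reported and under each other setting, which lies above the dotted line at 0.05 without a variance prior and without arrays 1, 2, 4 or 5.

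RNA of whole brain cannot tell more cells of a type from more RNA per cell, so the markers of the cells that carry Mertk were read beside it. Of 12 tested microglia and macrophage markers, 3 had a change above 0 and 9 below, with a median of -0.069 and a range of -0.20 to 0.056. None of these markers passed in limma, and 1 was lower with an unadjusted p under 0.05, beside 8.44% of all genes. Their mean level was 7.42 and 7.36 on ethanol arrays 2 and 4 and between 7.41 and 7.49 on the saline arrays. The markers Aif1 and Cd163 were left out as dim. Of 12 astrocyte and radial glia markers, 5 had a change above 0 and 7 below, with a median of -0.010 and a range of -0.18 to 0.11. None of these passed in limma, and 2 were lower with an unadjusted p under 0.05, beside 8.44% of all genes. Their mean level was 10.32 and 10.38 with ethanol against 10.33 to 10.41 with saline. No marker of either cell type had a change as large as that of Mertk or of Megf10 on the higher side. Endothelial markers had a median of -0.016 over 9 tested genes, with a range of -0.12 to 0.18. None of these passed in limma, and 1 was higher with an unadjusted p under 0.05, beside 3.85% of all genes. The 10 pericyte and smooth muscle markers all lay below 0 (median -0.091), where 41.4% of all genes lay above 0. None of them passed in limma, and 1 was lower with an unadjusted p under 0.05, beside 8.44% of all genes. Of the markers of the pituitary, the hormone gland at the base of the brain, 5 of 5 tested lay below 0 (median -0.17). None of these markers passed in limma, and 4 were lower with an unadjusted p under 0.05, beside 8.44% of all genes. Their mean level was 6.596 and 5.958 on ethanol arrays 2 and 4 and 6.79 to 6.95 on the saline arrays, and the hormone gene Gh had a log2 change of -1.52 ± 0.38 (SE) and Cga one of -1.204 ± 0.215. The part of this difference in the values of the 8 members was not tested.

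Other genes of the pathway were read from 8 lists of 148 genes, 7 of them on the clearance of dying cells and 1 on nuclear receptors and their targets, of which 122 genes were tested, 17 were dim and the others were not analysed here. None passed in limma, in the fit reported or under any of its 16 other settings. Over the 7 clearance lists (104 tested genes), 5 genes were higher and 4 lower with an unadjusted p under 0.05, or 4.81% and 3.85%, beside 3.85% and 8.44% of all tested genes. Both ethanol arrays lay above all saline arrays for 11 of these genes (10.6%) and below for 17 (16.3%), beside 7.68% and 14.9% of all genes. Their median change was -0.0190, beside -0.0195 over all tested genes, and no gene of the 8 lists exceeded 0.30 in size.

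Other receptors for dying cells (15 tested of 21) had a median of -0.029, with 7 above 0 and 8 below. Scarf2 and Scarf1, scavenger receptors of the endothelium and other cells, had log2 changes of -0.22 ± 0.06 (SE) and -0.12 ± 0.06, with Scarf2 near background. Lrp1, a large endocytic receptor, had 0.16 ± 0.09. The phagocyte receptor genes Timd4, Havcr1, Olr1, Cd300lf, Cd300lb and Msr1 were dim and were not tested. Other bridging molecules and opsonins (12 tested of 18) had a median of -0.036. Tub, whose protein has been described as a ligand of Mertk, had 0.17 ± 0.07, the lectin gene Mbl2, near background, -0.14 ± 0.06, and the complement gene C1qb -0.13 ± 0.07. None of the members of either list passed in limma. With an unadjusted p under 0.05, 1 was higher and 2 were lower, beside 3.85% and 8.44% of all genes.

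Genes of the vitamin K cycle, on which the ligands Gas6 and protein S depend, went both ways. Of 5 tested, Vkorc1, the reductase that warfarin blocks, had a log2 change of 0.19 ± 0.08 (SE), Ggcx, the carboxylase itself, 0.11 ± 0.07, and Calu, which encodes calumenin, -0.11 ± 0.06. The median was -0.040. Among genes that expose phosphatidylserine or attract phagocytes (21 tested of 23, median -0.026, 7 above 0 and 14 below), the scramblase gene Ano6 led with 0.29 ± 0.08, from 9.42 ± 0.10 (SD, n = 4) to 9.71 in the mean of the ethanol arrays (limma adjusted p = 0.164). S1pr1, a receptor for the attractant lipid sphingosine phosphate, had 0.20 ± 0.07, and Anxa5, whose protein binds phosphatidylserine, -0.12 ± 0.06. Among 8 tested signals that restrain engulfment (median -0.028), the phosphatase genes Ptpn11 and Ptpn6 had 0.13 ± 0.06 and -0.091 ± 0.062, and Sirpa, the receptor for Cd47, 0.10 ± 0.06. No gene of the vitamin K, exposure or restraint lists passed in limma. With an unadjusted p under 0.05, 3 were higher and none lower, beside 3.85% and 8.44% of all genes.

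Engulfment signalling and corpse processing (26 tested of 30) had a median of -0.011, with 12 above 0 and 14 below. Both ethanol arrays lay above the saline arrays for 1 of its genes and below for 5, beside 7.68% and 14.9% of all genes. The only member with an unadjusted p under 0.05 in limma, beside 12.3% of all genes, was Cybb (-0.15 ± 0.07, near background). It encodes a subunit of the phagocyte oxidase. The lipid transporter genes Abca7 and Abca1 had -0.13 ± 0.06 and 0.13 ± 0.07. Shedding and signalling of the TAM receptors (17 tested of 20, median -0.012) was led by Pik3r1, a regulatory subunit of PI3-kinase (0.19 ± 0.07), Rhbdf1, a cofactor of the shedding protease (-0.14 ± 0.06), and Timp3, an inhibitor of that protease (-0.12 ± 0.06). Pik3r1 was higher and Rhbdf1 lower with an unadjusted p under 0.05 in limma, beside 3.85% and 8.44% of all genes.

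The last list held the LXR, PPAR and glucocorticoid receptors, under which Mertk is known to be induced in macrophages, with close targets of theirs. It had a median of 0.073 over 18 tested genes of 21, with 13 above 0 and 5 below, and none passed in limma. Neither LXR gene was tested, since Nr1h3 was dim and Nr1h2 was not analysed here. Abcg1, a cholesterol exporter and LXR target, had 0.27 ± 0.06 (SE; limma adjusted p = 0.120), the metallothionein gene Mt1 0.24 ± 0.07 and the hormone-induced factor gene Zbtb16 0.23 ± 0.07. At an unadjusted p under 0.05, 6 were higher and 1 lower (33.3% and 5.56%), beside 3.85% and 8.44% of all genes, and both ethanol arrays lay above all saline arrays for 7 and below for 1, beside 7.68% and 14.9%. These counts are a description, since the list was chosen with earlier results of these data known. The 1 lower gene was Nr3c1, the glucocorticoid receptor gene, at -0.15 ± 0.058. Also below 0 were Mylip (-0.088 ± 0.067), Fkbp5 (-0.065 ± 0.064), Srebf1 (-0.048 ± 0.058) and Pparg (-0.033 ± 0.062).

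**Figure D3:**
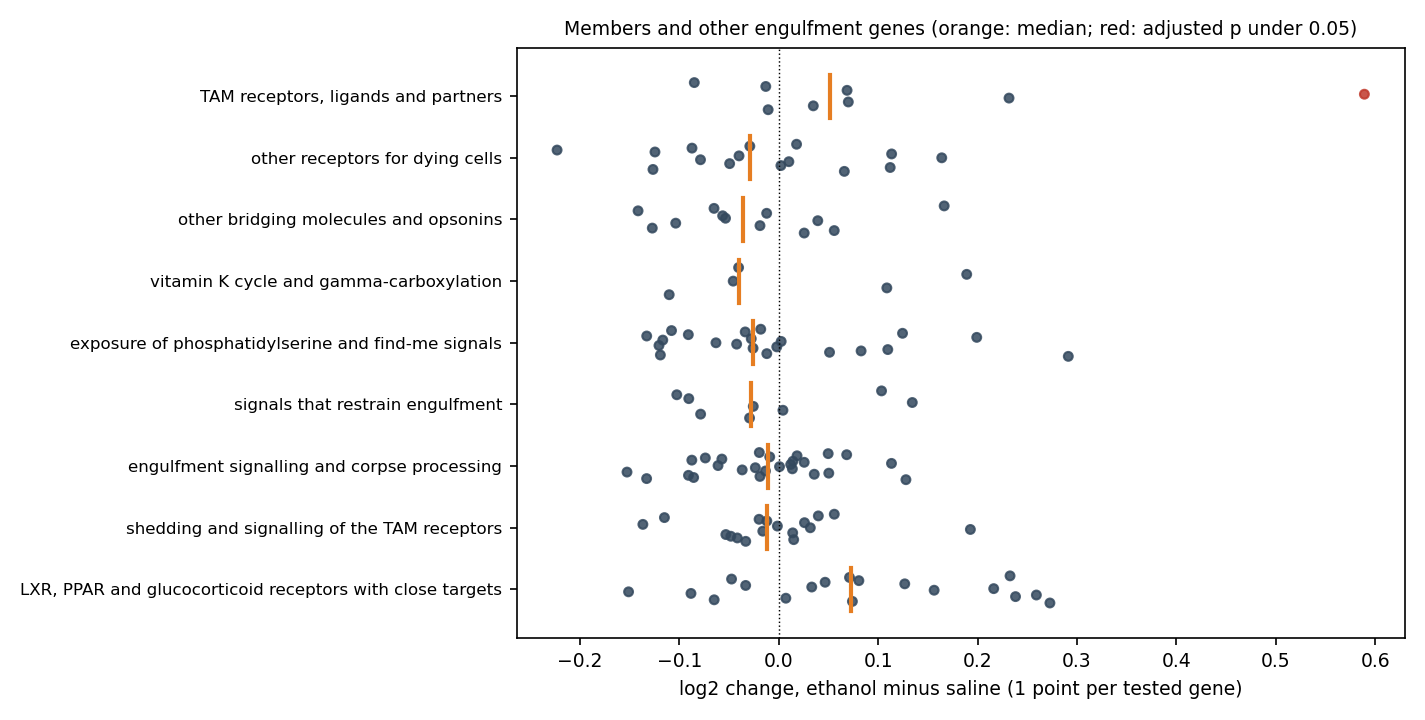
Log2 change (ethanol minus saline, horizontal axis) of each tested gene, with the median of each list in orange. Shown are the 8 members, the 7 lists of other clearance genes and the list of nuclear receptors with close targets. Mertk at 0.59 is the only red point, a gene past the adjusted threshold. The list medians lie between -0.040 and 0.073, the highest being that of the nuclear receptor list.

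The genes whose 6 values were most like those of Mertk were found by the root mean square difference of log2 values, each gene centred on its own mean over the 6 arrays. Rapgef6, a guanine nucleotide exchange factor gene, was closest at 0.059, then Arrdc4 at 0.064, Bcl2l11, the gene of the death-promoting BIM protein, at 0.067, 6330409D20Rik at 0.082 and Rasl11b at 0.084. The median over all 14952 genes compared was 0.31. Both ethanol arrays lay above all saline arrays for each of these 5 genes, with log2 changes of 0.56, 0.59, 0.53, 0.53 and 0.49. The genes were picked for values like those of Mertk, so this separation and these sizes follow from the choice and support nothing. Over all tested genes, 7.68% lay that way. Only Arrdc4 passed in limma (adjusted p = 0.0249, beside 0.0630 for Rapgef6, Bcl2l11 and 6330409D20Rik and 0.0838 for Rasl11b). Of the other members, Megf10 was the closest at 0.21, with rank 310 among the genes compared, then Mfge8 at 0.26, with rank 1999, and Tyro3 was the farthest at 0.33.

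**Figure D4:**
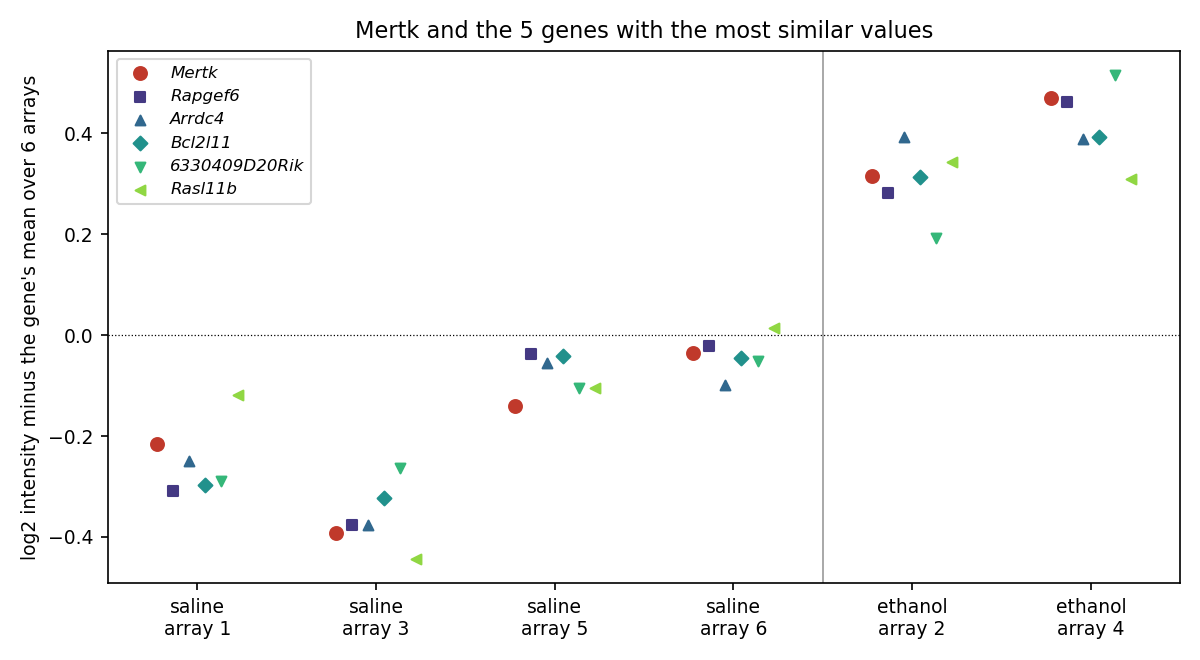
Log2 intensity minus the gene's mean over the 6 arrays (vertical axis) for Mertk (red) and the 5 genes closest to it, by array. All 6 genes are highest on the 2 ethanol arrays and, apart from 6330409D20Rik, lowest on saline array 3. The 5 genes were picked for their likeness to Mertk, so the shared pattern follows from the choice.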

How the data were processed

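RNA pooled from 3 pups per array was labelled (200 ng) for Affymetrix whole-transcript arrays, per the labels' protocols. The authors deposited 1 value per probeset, taken here as log2 intensity from its range of 4.10 to 14.9. Partek 6.6 is named in the submitters' processing notes. How they were normalized and summarised is not given in these sources, and they were used as deposited. Of 35556 probesets, 21789 had 1 gene symbol (21698 updated through current gene records), 1621 several, and 12146 were unnamed here. The dimmest 25% of genes (up to 5.55) were left out. All 6 arrays were fitted in R 4.3.3 by limma 3.58.1 on treatment alone (4 residual and 8.10 prior degrees of freedom), two-sided, with Benjamini-Hochberg adjustment over 14953 genes. Each p-value measures the spread between pooled samples. The fit takes the arrays as independent, although ethanol pups had littermates in the saline group. The fit was also run on simulated data with 14953 genes, of which 200 changed. It recovered 90% of changes of 0.6 and 100% of changes of 1.2 (log2), with 5 false calls. The simulated noise was independent for each gene and array, without any effect shared over an array. More genes changed in it than the 12 that passed here, and smaller changes were not simulated. These shares are therefore a check of the fit and not its power on these arrays. The members and lists were chosen with earlier results of these data known. Named were all members, up to 3 genes of each list by smallest p, and the 5 genes closest to Mertk. Nr3c1, Mylip, Fkbp5, Srebf1, Pparg, Gh and Cga were named after their values were seen. Alternatives were the filter on dim genes, the handling of probesets, centring, quantile normalization, the variance prior, array weights and each array left out.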

Additional observations from a re-analysis of the deposited data

Results flagged for a closer look

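The saline arrays of Tyro3 held a value far from the others. On saline array 3 Tyro3 was at 8.28, and on saline arrays 1, 5 and 6 at 8.41, 8.39 and 8.39, so that the gap from the lowest to its neighbour was 0.872 of the whole range of the 4 arrays. The cutoff for flagging such a gap is passed by chance in about 1 in 20 groups of independent, normally spread values. The 8 members and the 3 ratios of Mertk to other receptors were looked at. Saline array 3 was the lowest saline array for 6 of the 8 members and for 51.3% of tested genes, so this rate is only a guide. Without it, the log2 change of Tyro3 was -0.12 in place of -0.085, and it did not pass in limma (adjusted p = 0.377).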

How the results depend on the processing

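No paired analysis was possible because the labels do not tie litters to arrays, and the ethanol and saline arrays share no replicate number. Of 10 settings that kept all arrays, 9 left Mertk past the threshold in limma (adjusted p of 0.0132 to 0.0486), with log2 changes of 0.54 to 0.60. Without a variance prior its change was 0.59 and its adjusted p 0.351. With each array left out in turn the change was 0.51 to 0.67, and 2 of 6 fits kept the call. The number of genes past the threshold was 12. It was 52 with the dimmest 50% of genes left out, 43 with an intensity trend, 56 with array weights and 0 without a variance prior (1535 at an unadjusted p under 0.05), and 4 to 16 with single arrays left out, the lowest without ethanol array 4. The cause was not tested. None of the other 7 members passed in any setting in which it was tested, and Pros1 was not tested with the dimmest 50% left out. The changes of Gas6, Pros1 and Axl turned sign. Gas6 was -0.011 with array weights, and -0.039 to 0.098 with single arrays left out, below 0 without saline array 3 or ethanol array 4. Pros1 was 0.0093 after quantile normalization and -0.18 to 0.150 with single arrays left out, above 0 without saline arrays 1 or 6 or ethanol array 2. Axl was -0.031 to 0.0093, above 0 without ethanol array 2 or saline array 6. The differences between Mertk and Tyro3 or Axl stayed at 0.54 to 0.80 after centring, after quantile normalization and without each array. The median of the 5 vitamin K cycle genes, -0.040, was above 0 with the dimmest 50% left out (0.034), after quantile normalization (0.0033), and without ethanol array 2 (0.092), ethanol array 4 (0.093) or saline array 3 (0.0011). The median of other receptors for dying cells was 0.014 with the dimmest 50% left out. The 2 ethanol arrays limit precision, and the SE of the members' changes was 0.059 to 0.102.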

Other observations

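Mertk and Bcl2l11, whose values over the 6 arrays were among the most alike, are also close neighbours on chromosome 2 in the GRCm38.p6 gene order, with 2 protein-coding genes between them. These 2 genes, Spdye4c and Anapc1, had log2 changes of -0.035 ± 0.071 (SE) and -0.013 ± 0.059, against 0.53 ± 0.09 for Bcl2l11 and 0.59 ± 0.09 for Mertk. The window held 12 other tested genes, the 2 between the pair included, up to 6 protein-coding genes to each side. None of the 12 passed in limma, and the median change was -0.042. An unadjusted p under 0.05 was found for 6 of them, beside 12.3% of all tested genes. Mall, Mtln, Bub1, Acoxl and Zc3h8 were lower and Zc3h6 was higher, beside 8.44% lower and 3.85% higher of all genes. The highest was Zc3h6, a zinc finger gene, at 0.32 ± 0.07 (limma adjusted p = 0.0953), and the lowest was Mtln, which encodes a mitochondrial microprotein, at -0.25 ± 0.07. Zc3h8, which lies next to Zc3h6, had -0.25 ± 0.07. This neighbourhood was looked at after the values of the pair had been seen, and the genes were chosen by position only.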
